A study of Mus musculus with 18 samples.

Results

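RNA of G9a knockout T cells carrying both CD4 and CD8 (double-positive, KO DP) was compared with RNA of wild-type T cells carrying CD8 without CD4 (single-positive, WT SP). The members were chosen by genotype and phenotype in the labels, and all 4 KO DP and all 4 WT SP libraries entered, which is 8 of the 10 RNA libraries and of the 18 samples of the series. The other RNA libraries came from knockout cells with CD8 alone (n = 2) and the remaining samples from chromatin, and neither enters the comparison. All 8 libraries came from C57BL/6 mice, and the T cells were taken from spleen and lymph nodes after 4 weeks of expansion in lymphopenic surroundings. The sources used here do not give the allele, the way G9a was deleted, the age and sex of the mice or whether each library had its own animal, and p-values may therefore measure technical spread. The series title puts the question as whether G9a keeps genes of the helper lineage silent in CD8 T cells. The 2 groups differ in genotype and in the coreceptors by which they were labelled, and these cannot be told apart here.

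G9a, encoded by Ehmt2, is a methyltransferase that places methyl groups on lysine 9 of histone H3, a modification found at silent chromatin. CD4 marks helper T cells, which see peptides on MHC class II, and CD8 marks cytotoxic T cells, which see peptides on MHC class I. Mature T cells normally keep only one of the coreceptors. T cells placed in a host with few lymphocytes divide in response to self peptides, microbial peptides and free cytokines, and take on features of effector and memory cells.

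The authors' values are FPKM, fragments scaled to gene length and library depth, and levels below are FPKM divided by a size factor per library (scaled FPKM). Deposited FPKM summed to 183632 to 482954, with KO DP replicates 4 and 3 lowest at 183632 and 292872. In the same 2 libraries the mean FPKM of the 1118 genes for odour receptors, which belong to the nose, was 0.227 and 0.149, against at most 0.021 in the other 6. Replicates 1 and 2 of both groups carry titles 34 to 37 and replicates 3 and 4 carry titles 738 to 741, and the meaning of these numbers is not given. Erythroid markers summed to 418 to 992 scaled FPKM in titles 34 to 37 and to 1.79 to 12.3 in titles 738 to 741, in both groups alike. Myeloid markers followed the same ranges, at 59.5 to 172 and 12.7 to 34.8, and the myeloid integrin gene Itgam was at 51.0 in WT SP replicate 2 against at most 4.39 in the other 7 libraries. None of the myeloid, erythroid or natural killer markers tested was called by limma between the groups, with 1, 0 and 0 past an unadjusted p of 0.05. B cell markers summed to 48.7 to 127 in KO DP and 32.3 to 94.6 in WT SP, dendritic cell markers to 367 to 668 and 148 to 441, and gamma-delta T cell markers to 38.4 to 94.1 and 13.6 to 34.2. Called among them were Cd22 (0.86) of 8 tested B cell markers, Xcr1 (0.96) and Zbtb46 (0.80) of 7 dendritic cell markers and Cd163l1 (3.17) of 3 gamma-delta markers, as log2 differences. Cd22, Xcr1 and Zbtb46 lost the call without scaling (adjusted p = 0.13 to 0.315), with no filter (0.0662 to 0.0946) and without 4 or more of the 8 libraries in turn. The part of these cells in the results was not tested. T cell markers summed to 3066 to 3787 in KO DP and 3080 to 3950 in WT SP. In such bulk RNA, fewer cells of a type and less RNA per cell cannot be told apart. Xist, transcribed from the inactive X chromosome, was at 2.27 to 5.22 in KO DP and 0.0115 to 0.0302 in WT SP, and the Y-linked genes Eif2s3y, Ddx3y, Kdm5d and Uty were at 4.06 to 42.4 in WT SP and at most 0.878 in KO DP, so sex and genotype cannot be told apart. Ehmt2 was at 17.1, 19.3, 16.2 and 14.7 in KO DP and 16.2, 36.3, 23.0 and 18.9 in WT SP. The groups overlapped and the gene was not called (-0.41 ± 0.23, adjusted p = 0.272), and since the deleted exons are not given and FPKM does not separate exons, this level does not check the genotype.

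Of 23234 gene symbols, 11211 had a mean of at least 0.5 deposited FPKM, before scaling, and were tested with limma on log2(scaled FPKM + 1). At a Benjamini-Hochberg adjusted p of 0.05, 1684 genes (15% of those tested) were called, 878 (7.83%) higher and 806 (7.19%) lower in KO DP. The median log2 difference (KO DP minus WT SP) of all genes tested was -0.05. The 4 and 4 libraries did not overlap in 19.8% of the genes tested, and 1510 of the called genes were among these. All 1684 called genes differed in the same direction within titles 34 to 37 and within titles 738 to 741 (2 libraries against 2 in each, with no test per range). Both ranges entered the fit that made the calls, so this sameness was largely set by the calling and is no independent check. A test of whether the difference itself changed with the range (limma's interaction term) called 39 genes (0.348%). At an unadjusted p under 0.05 it held 1591 of the 11211. Of the 39, 16 have microRNA or small nucleolar RNA symbols and 2 were among the 1684. The fit by group alone counts a change with the range as spread, so genes with a large one are seldom called.

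**Figure D1:**
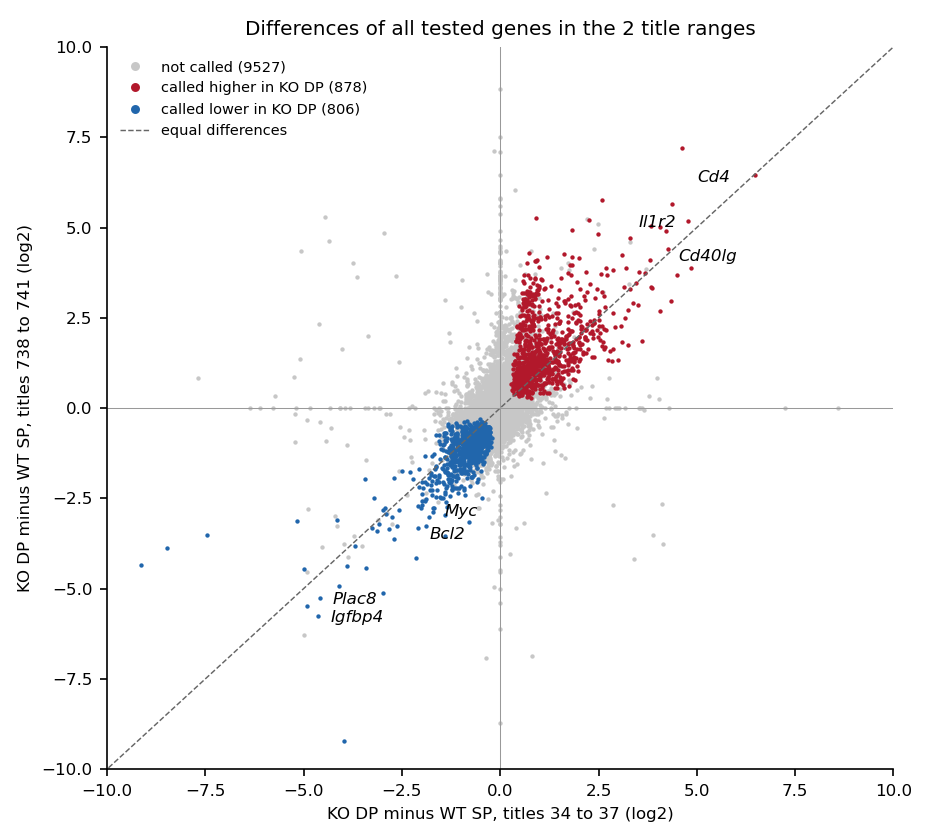
Each point is 1 of the 11211 genes tested, with the difference of KO DP and WT SP group means on the log2(scaled FPKM + 1) scale in titles 34 to 37 on the x axis and in titles 738 to 741 on the y axis. Genes called higher (878, red) lie in the upper right quadrant and genes called lower (806, blue) in the lower left, and genes not called are grey.

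The number of calls depended on single libraries. It was 881 without KO DP replicate 2, 840 without KO DP replicate 3, 971 without KO DP replicate 4, 890, 679 and 757 without WT SP replicates 1, 3 and 4, and 1461 and 2376 without KO DP replicate 1 and WT SP replicate 2. With KO DP limited to replicates 1 and 2, which leaves fewer samples, 545 genes were called. On unscaled FPKM the median of all genes moved to -0.38, 591 genes were called and 40.8% of them were higher, against 52.1% on scaled values and 64.1% with equal sums. In the 17 alternative settings run, no called gene was called in the opposite direction, and 225 genes (106 higher, 119 lower) passed in every one. Values in parentheses after gene names below are log2 differences on the log2(scaled FPKM + 1) scale, which understates the change of low genes. "±" after a difference is its SE. Adjusted p-values are limma's over all 11211 genes, with n = 4 in each group. For gene lists, the range without single libraries covers the 8 fits that left out 1 library each.

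Cells were labelled by CD4 and CD8, so the coreceptor genes check the labels. Cd4 was at 110.4, 145, 100.2 and 99.7 in KO DP and 0.442, 0.397, 0.199 and 0.126 in WT SP. No library of one group reached the other (6.47 ± 0.16, adjusted p = 4.11e-07). Cd8a, the alpha chain of CD8, was at 214, 156, 196 and 141 in KO DP and 238, 212, 289 and 272 in WT SP. The 2 groups overlapped and the gene was not called (-0.52 ± 0.17, adjusted p = 0.0715). Cd8b1, the beta chain, was at 739, 565, 656 and 501 in KO DP and 1145, 1005, 1289 and 1229 in WT SP. Every KO DP library lay below every WT SP library (-0.93 ± 0.17, adjusted p = 0.00988), so KO DP cells kept CD8 RNA at a lower beta chain level. Cd8a passed without WT SP replicate 2 (adjusted p = 0.0429) and with all 10 RNA libraries in the fit (adjusted p = 0.0474). Without scaling, Cd8b1 lost the call (adjusted p = 0.0925). With KO DP limited to replicates 1 and 2, Cd8b1 did not pass (adjusted p = 0.0924). With no filter on low values, Cd8b1 did not pass (adjusted p = 0.0530).

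The 3 genes given as marks of the groups beside Cd4 separated them in every library. Cd40lg, the helper cell ligand that signals to B cells and dendritic cells through CD40, was at 23.3, 29.9, 42.6 and 35.0 in KO DP and 0.748, 0.151, 0.694 and 1.05 in WT SP. All KO DP libraries were far above all WT SP libraries (4.34 ± 0.24, adjusted p = 2.71e-05). Il1r2, the decoy receptor that binds interleukin 1 without signalling, was at 26.3, 48.7, 40.8 and 30.6 in KO DP and 0.0723, 0.660, 0 and 0 in WT SP. The gene was listed at 0 in 2 WT SP libraries and no KO DP library came near that level (4.99 ± 0.25, adjusted p = 2.02e-05). Igfbp4, which binds insulin-like growth factors, was at 0.677, 0.923, 0.448 and 0.790 in KO DP and 68.6, 27.6, 87.4 and 83.6 in WT SP. It showed the converse pattern, with WT SP replicate 2 the lowest of its group and still above all KO DP libraries (-5.19 ± 0.34, adjusted p = 6.72e-05).

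The largest rises were led by genes of the cell surface and of secreted signals. Tnfrsf4 encodes OX40, a costimulatory TNF receptor, and was at 68.3, 109, 71.4 and 99.8 in KO DP and 1.99, 6.41, 1.85 and 1.86 in WT SP. The groups did not overlap, with WT SP replicate 2 above the rest of its group (4.56 ± 0.33, adjusted p = 1.09e-04). Hrh4, the histamine H4 receptor, was at 15.8, 27.9, 58.3 and 44.2 in KO DP and 0.618, 0.475, 0.227 and 1.01 in WT SP. KO DP replicates 3 and 4 were the highest (4.44 ± 0.37, adjusted p = 2.52e-04). Ccr6, the receptor of the chemokine CCL20, was at 19.8, 29.7, 23.2 and 30.8 in KO DP and 0.909, 0.699, 0.148 and 1.26 in WT SP. All KO DP libraries lay well above WT SP (3.96 ± 0.24, adjusted p = 4.77e-05). Tnfsf11 encodes RANKL, a TNF family ligand that acts on osteoclast precursors and dendritic cells, and was at 13.6, 14.5, 14.1 and 15.6 in KO DP and 0.365, 0.234, 0.179 and 0.150 in WT SP. The 4 KO DP libraries were closely alike (3.65 ± 0.14, adjusted p = 2.69e-06). Ccl1, the ligand of CCR8, was at 12.7, 31.3, 12.7 and 12 in KO DP and 1.64, 0, 0 and 0 in WT SP. It was listed at 0 in 3 of 4 WT SP libraries and KO DP replicate 2 stood above the rest of its group (3.72 ± 0.41, adjusted p = 0.00105).

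Other leading rises were Gtsf1, a factor of the piRNA pathway in germ cells (4.54 ± 0.25, adjusted p = 3.12e-05), Tff1, a secreted trefoil peptide (4.37 ± 0.44, adjusted p = 6.94e-04), and Folr4, a member of the folate receptor family (4.09 ± 0.38, adjusted p = 4.83e-04). Gtsf1 was at 26.8, 19.7, 25.7 and 38.2 in KO DP and 0.159, 0.764, 0 and 0 in WT SP, with 2 WT SP libraries listed at 0 and no overlap. Tff1 and Folr4 were higher in KO DP replicates 1 and 2 than in 3 and 4, and no KO DP library of either reached down to WT SP. Ifitm2, an interferon-induced membrane protein (4.01 ± 0.30, adjusted p = 1.39e-04), and Crmp1, a cytoskeletal phosphoprotein best known from neurons (3.66 ± 0.60, adjusted p = 0.00681), also rose. Crmp1 was at 64.9, 85.8, 121 and 81.6 in KO DP and 5.62, 26.2, 2.78 and 2.34 in WT SP. WT SP replicate 2 was the highest of its group there and remained below KO DP. Crmp1 missed the threshold when KO DP replicates 3 and 4 were left out (adjusted p = 0.0694).

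The largest falls included a leukocyte protein and a receptor of lymph node homing. Plac8, a small cysteine-rich protein of leukocytes, was at 13.0, 6.10, 4.72 and 8.17 in KO DP and 345, 166, 252 and 303 in WT SP. The groups lay far apart (-4.92 ± 0.31, adjusted p = 5.92e-05). Ccr7, a chemokine receptor of lymphocyte homing to lymph nodes, was at 22.3, 16.2, 15.9 and 19.6 in KO DP and 206, 81.3, 247 and 217 in WT SP. WT SP replicate 2 was the lowest of its group and still above all KO DP libraries (-3.17 ± 0.33, adjusted p = 7.16e-04).

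Aqp9, a channel for water, glycerol and urea, was at 0.910, 0.154, 0.390 and 1.12 in KO DP and 38.2, 15.6, 51.4 and 50.7 in WT SP. KO DP libraries were near 0 or 1 (-4.51 ± 0.38, adjusted p = 2.70e-04). Cnr2, the cannabinoid receptor of leukocytes, was at 0.80, 0.335, 0.751 and 1.06 in KO DP and 21.0, 7.40, 21.4 and 17.1 in WT SP. WT SP exceeded KO DP throughout, with replicate 2 its lowest (-3.27 ± 0.32, adjusted p = 5.83e-04). Il6ra, the interleukin 6 receptor, was at 1.19, 1.33, 1.19 and 1.87 in KO DP and 28.2, 11.6, 23.2 and 21.7 in WT SP. All KO DP libraries were below 2 scaled FPKM (-3.15 ± 0.26, adjusted p = 2.27e-04). Further falls were Pde2a (-3.15), a phosphodiesterase of cyclic nucleotides, Rcn3 (-3.08), a calcium-binding protein of the secretory pathway, Zfp296 (-2.94), a zinc finger protein, Fcgrt (-2.90), the neonatal Fc receptor, and Slc16a5 (-2.88), of the monocarboxylate transporter family. The Pde2a difference was -2.13 in titles 34 to 37 and -4.16 in titles 738 to 741. Limma's interaction term did not call this change (adjusted p = 0.0643). Surf2 was at 33.5, 25.4, 41.0 and 47.0 in WT SP, and every KO DP library lists it at 0. Comtd1, a methyltransferase-like protein, was at 7.85, 5.34, 7.07 and 6.25 in WT SP and is likewise listed at 0 throughout KO DP. An exact 0 in FPKM can be a failed estimate, so no fold is given for these.

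**Figure D2:**
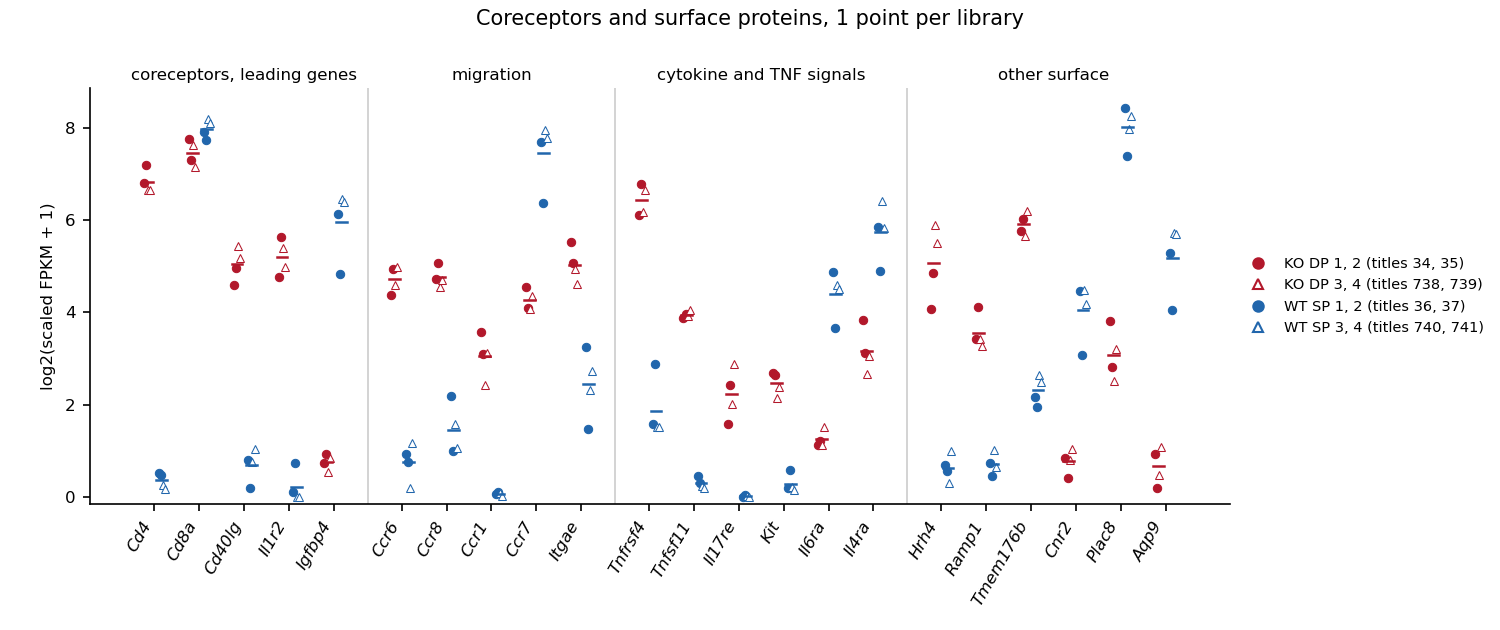
Levels of coreceptors, leading genes and surface proteins, as log2(scaled FPKM + 1), with 1 point per library (KO DP red, WT SP blue, circles for titles 34 to 37, open triangles for 738 to 741) and lines at the group means. Except for Cd8a, the 2 groups of each gene drawn do not overlap, and WT SP replicate 2 is the lowest WT SP library for Igfbp4, Ccr7 and Plac8.

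The gene lists described next were read against the background of 7.83% higher and 7.19% lower. In either direction, 15% of all genes tested were called. The shares ran from 16.1% (ion channels) to 48.9% (interleukin and growth factor receptors) in lists of surface proteins. In metabolic lists they ran from 0% (pentose phosphate pathway) to 33.3% (fatty acid synthesis and redox defence), so these themes overlapped. Mitosis held 75.7%, DNA replication 35.7% and the respiratory chain 1.39%. The plot of shares per list shows each direction apart. In parentheses after a list, pairs of counts are members called higher and lower under another setting. Beside the fits without single libraries, only the replicate block, unscaled FPKM and KO DP replicates 1 and 2 alone are given there. These are given where either count moved by more than 1.5 times. Counts under the remaining settings are mostly left out and also moved for some lists. With the title range as a covariate, nucleotide synthesis had 2 and 8 and adhesion molecules 11 and 10. With no filter, adhesion molecules had 3 and 4.

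**Figure D3:**
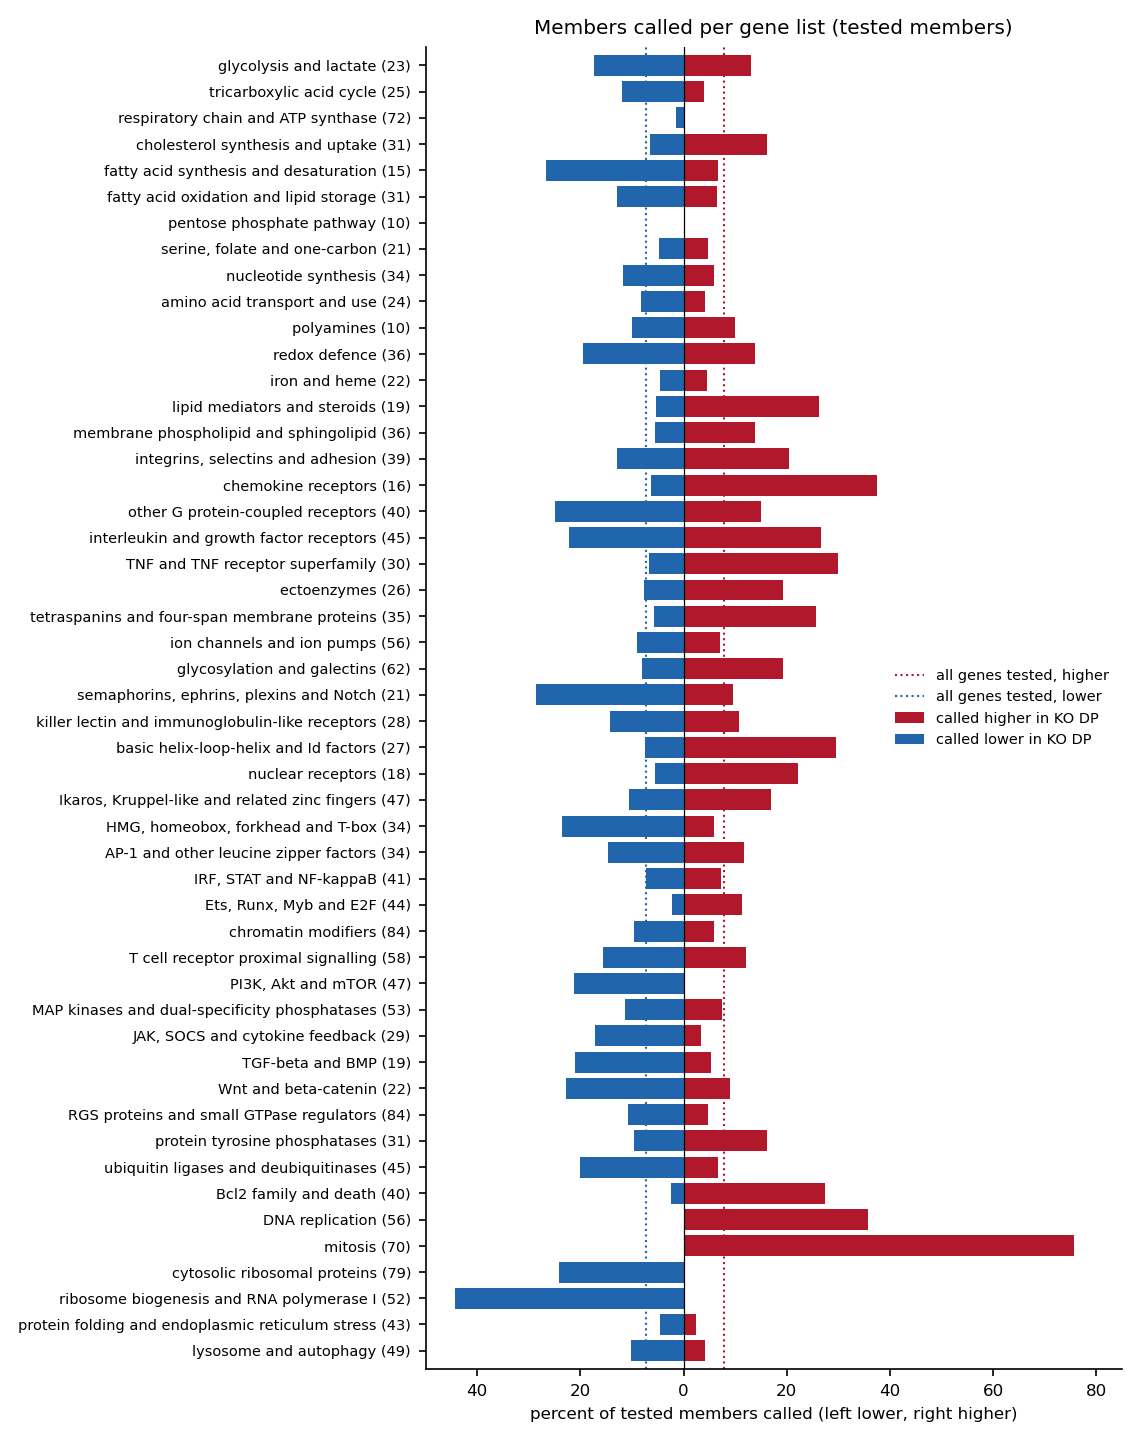
Share of the tested members of each gene list called higher (red, to the right) or lower (blue, to the left) in KO DP, in percent, with the number tested in parentheses and the shares of all 11211 genes as dotted lines (7.83% and 7.19%). The mitosis list extends farthest to the right (53 of 70) and ribosome biogenesis farthest to the left (23 of 52).

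Central carbon metabolism changed in single genes more than in whole pathways. Of the respiratory chain and ATP synthase genes, 0 of 72 tested members were called higher and 1 lower, with a median log2 difference of -0.01 (0 higher and 0 to 1 lower without single libraries, 0 and 0 without scaling, 0 and 0 with KO DP replicates 1 and 2 alone), and 1 was higher at an unadjusted p under 0.05. In glycolysis and lactate handling, 3 of 23 tested members were called higher and 4 lower, with a median log2 difference of 0.10 (1 to 4 higher and 2 to 4 lower without single libraries, 1 and 3 without scaling, 1 and 1 with KO DP replicates 1 and 2 alone). Ldhb, the lactate dehydrogenase subunit that favours lactate use, was at 2.46, 2.68, 2.74 and 3.97 in KO DP and 0.228, 0.328, 0.919 and 0.28 in WT SP. KO DP exceeded WT SP in every library (1.47 ± 0.21, adjusted p = 0.00354). Ldha, the subunit that favours lactate production, overlapped between the groups at 303, 442, 699 and 484 in KO DP and 397, 370.1, 482 and 469 in WT SP. Pdk1, a kinase that keeps pyruvate from oxidation in the mitochondrion, was at 4.92, 3.37, 4.68 and 6.32 in KO DP and 21.7, 9.93, 37.1 and 32.5 in WT SP. The groups did not overlap, with WT SP replicate 2 the lowest of WT SP (-2.05 ± 0.37, adjusted p = 0.0103). The glucose transporter gene Slc2a1 (-0.66) and the muscle-type enolase gene Eno3 (-2.04) fell, whereas hexokinase 2, Hk2, was low in all libraries and not called (0.28 ± 0.25, adjusted p = 0.472). In the tricarboxylic acid cycle, 1 of 25 tested members was called higher and 3 lower, with a median log2 difference of -0.02 (0 to 1 higher and 1 to 3 lower without single libraries, 0 and 0 without scaling, 0 and 2 with KO DP replicates 1 and 2 alone). The malic enzyme gene Me2 (-0.89) was among the falls. None of the 10 tested genes of the pentose phosphate pathway was called by limma, and 2 were lower at an unadjusted p under 0.05. On unscaled FPKM, Slc2a1 and Me2 did not pass the test (adjusted p = 0.0586 to 0.0960). The calls of Pdk1, Eno3 and Slc2a1 ended on KO DP replicates 1 and 2 alone (adjusted p = 0.0603 to 0.0855). Slc2a1 also lost the call without WT SP replicate 3 (adjusted p = 0.0536).

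Lipid metabolism held changes in both directions. In cholesterol synthesis and uptake, 5 of 31 tested members were called higher and 2 lower, with a median log2 difference of 0.29 (3 to 7 higher and 0 to 4 lower without single libraries, 4 lower with the replicate block, 1 and 1 without scaling, 2 and 0 with KO DP replicates 1 and 2 alone, median -0.07 without scaling). Sqle, squalene epoxidase, was at 10.5, 12.4, 17.3 and 12.8 in KO DP and 2.75, 4.54, 1.52 and 2.18 in WT SP. Each KO DP library was above 10 and all WT SP libraries below 5 scaled FPKM (1.97 ± 0.26, adjusted p = 0.00247). Cyp51 (1.37), which demethylates lanosterol, and Fdps (0.90), which makes farnesyl diphosphate, also rose. In fatty acid synthesis and desaturation, 1 of 15 tested members was called higher and 4 lower, with a median log2 difference of -0.21 (1 higher and 2 to 4 lower without single libraries, 0 and 3 without scaling, 0 and 2 with KO DP replicates 1 and 2 alone). The desaturase gene Fads1 (1.29) was the 1 rise, and the elongase gene Elovl7 (-1.63) and the acetate-activating enzyme gene Acss2 (-1.36) were among the falls. In fatty acid oxidation and storage, 2 of 31 tested members were called higher and 4 lower, with a median log2 difference of -0.07 (2 to 3 higher and 1 to 5 lower without single libraries, 1 and 1 without scaling, 1 and 1 with KO DP replicates 1 and 2 alone). G0s2, an inhibitor of adipose triglyceride lipase, was at 0.395, 0.342, 0.373 and 0.920 in KO DP and 21.3, 13.0, 25.5 and 18.6 in WT SP. No KO DP library reached 1 (-3.75 ± 0.23, adjusted p = 4.77e-05). Fabp5, a fatty acid binding protein, was at 10.7, 22.8, 26.6 and 18.3 in KO DP and 1.94, 7.78, 0.956 and 3.11 in WT SP. KO DP was above WT SP without overlap, though WT SP replicate 2 at 7.78 lay close to KO DP replicate 1 at 10.7 (2.37 ± 0.45, adjusted p = 0.0124). Dgat1, which makes triglycerides, rose (1.12), and Cpt1a, the entry step of mitochondrial fatty acid oxidation, was not called (0.05 ± 0.18, adjusted p = 0.891). Cyp51, Fdps, Fads1 and Dgat1 missed the threshold on unscaled values (adjusted p = 0.122 to 0.338). Leaving out both KO DP libraries of the higher titles ended the calls of Cyp51, Fads1, Acss2 and Fabp5 (adjusted p = 0.0553 to 0.107).

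Sphingolipid and lipid mediator genes were fewer but included large changes. Ugcg, which makes glucosylceramide, was at 37.6, 38.2, 34.2 and 25.2 in KO DP and 126, 133, 103 and 115 in WT SP. All WT SP libraries were above 100 and all KO DP libraries below 40 (-1.80 ± 0.16, adjusted p = 3.04e-04). In that list of membrane phospholipid and sphingolipid genes, 5 of 36 tested members were called higher and 2 lower, with a median log2 difference of -0.08 (1 to 5 higher and 1 to 4 lower without single libraries, 0 and 2 without scaling, 2 and 1 with KO DP replicates 1 and 2 alone). The secreted lysophospholipase gene Enpp2 (1.36), which makes lysophosphatidic acid, rose. Among lipid mediator and steroid genes, 5 of 19 tested members were called higher and 1 lower, with a median log2 difference of 0.17 (3 to 5 higher and 0 to 2 lower without single libraries, 3 lower with the replicate block, 1 and 1 without scaling, 4 and 0 with KO DP replicates 1 and 2 alone, median -0.10 without scaling). Rises there included Ptger4 (1.12), a prostaglandin E2 receptor, Dhrs3 (1.76), a retinal reductase, and Rarg (1.73), a retinoic acid receptor. Without scaling, Ptger4, Rarg and Enpp2 lost the call (adjusted p = 0.0546 to 0.262).

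Single genes of amino acid, polyamine and nucleotide metabolism were called in both directions. The genes of those lists described here are falls, and the called rises are given as counts. Among tested polyamine genes, 8 differences were positive and 2 negative. Slc7a5, the large neutral amino acid transporter, was at 6.66, 8.01, 7.22 and 3.76 in KO DP and 18.9, 16.6, 17.1 and 15.4 in WT SP. KO DP was below WT SP in all libraries (-1.32 ± 0.20, adjusted p = 0.00520). In the amino acid list, 1 of 24 tested members was called higher and 2 lower, with a median log2 difference of -0.07 (0 to 2 higher and 1 to 2 lower without single libraries, 0 and 1 without scaling, 1 and 1 with KO DP replicates 1 and 2 alone). The spermidine synthase gene Srm (-1.22), the adenosine deaminase gene Ada (-1.56) and the guanine nucleotide synthesis gene Impdh1 (-0.92) also fell. Among polyamine genes, 1 of 10 tested members was called higher and 1 lower, with a median log2 difference of 0.45 (0 to 2 higher and 1 to 2 lower without single libraries, 0 higher with the replicate block, 0 and 1 without scaling, 0 and 0 with KO DP replicates 1 and 2 alone). For nucleotide synthesis, 2 of 34 tested members were called higher and 4 lower, with a median log2 difference of -0.06 (0 to 5 higher and 2 to 7 lower without single libraries, 1 and 2 without scaling, 1 and 2 with KO DP replicates 1 and 2 alone). In redox defence, 5 of 36 tested members were called higher and 7 lower, with a median log2 difference of 0.03 (1 to 7 higher and 2 to 10 lower without single libraries, 2 and 1 without scaling, 0 and 0 with KO DP replicates 1 and 2 alone). The sulfiredoxin gene Srxn1 (1.59) rose, and Txnip (-1.03), an inhibitor of thioredoxin, and Nfe2l2 (-1.12), the transcription factor of the antioxidant response, fell. Among iron and heme genes, 1 of 22 tested members was called higher and 1 lower, with a median log2 difference of -0.04 (0 to 1 higher and 1 lower without single libraries, 0 higher with the replicate block, 0 and 1 without scaling, 0 and 1 with KO DP replicates 1 and 2 alone). Slc11a2, an iron transporter, fell (-1.58), and the transferrin receptor Tfrc was not called (-0.19 ± 0.22, adjusted p = 0.593). For serine, folate and one-carbon metabolism, 1 of 21 tested members was called higher and 1 lower, with a median log2 difference of -0.13 (0 to 3 higher and 0 to 4 lower without single libraries, 2 lower with the replicate block, 0 and 0 without scaling, 0 and 0 with KO DP replicates 1 and 2 alone). The calls of Srxn1, Txnip and Impdh1 ended without scaling (adjusted p = 0.0713 to 0.0800). Srm, Srxn1, Txnip, Nfe2l2 and Ada missed the threshold when KO DP replicates 3 and 4 were left out (adjusted p = 0.0549 to 0.10).

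Receptors that direct migration changed in both directions. Of the chemokine receptors, 6 of 16 tested members were called higher and 1 lower, with a median log2 difference of 0.78 (5 to 7 higher and 1 lower without single libraries), and Ccr7 was the 1 that fell. Ccr8, the receptor of CCL1, was at 25.5, 32.5, 22.3 and 25.1 in KO DP and 3.55, 0.998, 2.0 and 1.09 in WT SP. KO DP lay above WT SP throughout (3.30 ± 0.27, adjusted p = 2.27e-04). Ccr1, an inflammatory chemokine receptor, was at 11, 7.52, 4.37 and 7.72 in KO DP and 0.0470, 0.0753, 0.0691 and 0.0232 in WT SP. WT SP was near 0 in every library (2.98 ± 0.24, adjusted p = 2.05e-04). Cxcr5, which guides cells to B cell follicles, rose too (2.12) and was highest in KO DP replicate 2. Among integrins, selectins and adhesion molecules, 8 of 39 tested members were called higher and 5 lower, with a median log2 difference of 0.32 (3 to 12 higher and 3 to 6 lower without single libraries, 2 and 3 without scaling, 2 and 1 with KO DP replicates 1 and 2 alone, median -0.01 without scaling). Itgae encodes CD103, the integrin chain that binds E-cadherin on epithelium, and was at 45.3, 32.4, 29.5 and 23.6 in KO DP and 8.55, 1.78, 3.98 and 5.64 in WT SP. Its KO DP libraries all exceeded WT SP (2.59 ± 0.36, adjusted p = 0.00345). Itgb1, the integrin beta 1 chain, rose (0.90), and Cdh1, E-cadherin itself, fell (-2.04). On unscaled FPKM, Itgb1 did not pass the test (adjusted p = 0.410). The call of Cdh1 ended on KO DP replicates 1 and 2 alone (adjusted p = 0.0855).

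Other G protein-coupled receptors and their partners also divided. Of these, 6 of 40 tested members were called higher and 10 lower, with a median log2 difference of -0.20 (5 to 7 higher and 6 to 9 lower without single libraries, 5 and 5 without scaling, 5 and 4 with KO DP replicates 1 and 2 alone). Ramp1, a partner chain that makes the calcitonin receptor-like receptor bind CGRP, was at 9.68, 16.4, 9.67 and 8.61 in KO DP and 0.667, 0.371, 1.02 and 0.571 in WT SP. KO DP replicate 2 was the highest, and no WT SP library came near (2.84 ± 0.22, adjusted p = 1.95e-04). Gpr15, a homing receptor of T cells for the colon, was at 9.62, 9.47, 23.7 and 52.9 in KO DP and 1.82, 0.109, 1.70 and 1.85 in WT SP. The KO DP libraries spread widely, with replicates 3 and 4 highest, and none overlapped WT SP (3.15 ± 0.56, adjusted p = 0.00908). Ramp3 (2.23), a second partner chain, and Gpr55 (2.39), a receptor of lysophospholipids, also rose. Falls included Vipr1 (-2.39), a receptor of vasoactive intestinal peptide, F2r (-1.39), a thrombin receptor, Tbxa2r (-1.23), the thromboxane receptor, and S1pr1 (-0.82), the receptor by which lymphocytes leave lymph nodes. F2r and S1pr1 missed the threshold on unscaled values (adjusted p = 0.0505 to 0.0586).

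Cytokine receptors were among the lists with the most calls. Among interleukin and growth factor receptors, 12 of 45 tested members were called higher and 10 lower, with a median log2 difference of 0.04 (8 to 12 higher and 5 to 12 lower without single libraries, 7 and 5 without scaling, 9 and 5 with KO DP replicates 1 and 2 alone). Il17re, a receptor chain for interleukin 17C, was at 1.99, 4.41, 3.07 and 6.33 in KO DP and 0, 0.0290, 0.0222 and 0 in WT SP. WT SP was at or near 0 in every library (2.21 ± 0.27, adjusted p = 0.00175). Kit, the stem cell factor receptor, was at 5.43, 5.27, 3.46 and 4.25 in KO DP and 0.141, 0.511, 0.171 and 0.110 in WT SP. KO DP was above 3 and WT SP below 1 in all libraries (2.18 ± 0.19, adjusted p = 3.14e-04). Il4ra, the interleukin 4 receptor chain, was at 13.3, 7.76, 5.32 and 7.38 in KO DP and 56.5, 28.7, 84.0 and 56.0 in WT SP. All WT SP libraries lay above all KO DP libraries (-2.57 ± 0.34, adjusted p = 0.00272). Il9r rose (2.32), and Il6st, the signalling chain that Il6ra needs, fell (-1.76), as did Il10rb (-1.25), a chain of the interleukin 10 receptor. Nrp1, neuropilin 1, was at 18.9, 17.5, 18.4 and 15 in KO DP and 0.504, 4.59, 0.243 and 0.501 in WT SP. WT SP replicate 2 was above the other 3 of its group and below KO DP (3.21 ± 0.44, adjusted p = 0.00295). With KO DP limited to replicates 1 and 2, Il10rb did not pass (adjusted p = 0.0917).

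In the TNF family, 9 of 30 tested members were called higher and 2 lower, with a median log2 difference of 0.55 (8 to 14 higher and 1 to 4 lower without single libraries, 5 and 1 without scaling, 7 and 0 with KO DP replicates 1 and 2 alone). Beside Tnfrsf4, Tnfsf11 and Cd40lg, described above, Tnfrsf25 (2.2), the death receptor that binds TL1A, and Tnfsf14 (1.64), the ligand LIGHT, rose, whereas Tnfrsf26 fell (-1.54). Tnfrsf25 was at 32.5, 40.4, 36.3 and 51.7 in KO DP and 9.80, 3.90, 10.7 and 8.84 in WT SP, without overlap. Adam15, a membrane metalloprotease, and Timp2, an inhibitor of metalloproteases, rose (1.57 and 1.85) among the ectoenzymes, where 5 of 26 tested members were called higher and 2 lower, with a median log2 difference of 0.05 (4 to 9 higher and 1 to 4 lower without single libraries, 4 lower with the replicate block, 2 and 2 without scaling, 5 and 1 with KO DP replicates 1 and 2 alone). Enpp4, a nucleotide-cleaving ectoenzyme, fell (-1.87). The call of Tnfsf14 ended without scaling (adjusted p = 0.0731). Tnfrsf26 missed the threshold when KO DP replicates 3 and 4 were left out (adjusted p = 0.0790).

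Most called tetraspanins and other four-span proteins were higher in KO DP. Among tetraspanins and other four-span proteins, 9 of 35 tested members were called higher and 2 lower, with a median log2 difference of 0.13 (8 to 12 higher and 2 to 5 lower without single libraries, 4 lower with the replicate block, 4 and 2 without scaling, median -0.09 without scaling). Tmem176b was at 53.2, 63.7, 49.2 and 72.6 in KO DP and 3.52, 2.84, 5.30 and 4.65 in WT SP. Its neighbour and relative Tmem176a moved alike, and neither overlapped between the groups (3.59 ± 0.19, adjusted p = 2.71e-05 for Tmem176b). The tetraspanin genes Cd81 (2.04) and Tspan17 (1.24) rose, and Tspan4, listed at 0 in KO DP replicates 3 and 4, was at 3.14, 2.17, 0 and 0 in KO DP and 12.4, 5.94, 9.97 and 11.2 in WT SP. For ion channels and pumps, 4 of 56 tested members were called higher and 5 lower, with a median log2 difference of -0.02 (3 to 8 higher and 4 to 7 lower without single libraries, 10 lower with the replicate block, 2 and 4 without scaling, 4 and 2 with KO DP replicates 1 and 2 alone). The ATP-gated channel gene P2rx7 (1.44) and the magnesium channel gene Trpm6 (1.10) rose, and Atp1b3 (-0.77), a sodium pump chain, and Slc12a7 (-1.56), a potassium-chloride cotransporter, fell. Killer lectin and immunoglobulin-like receptors held Klrd1 (-1.31), CD94, among their falls, and in that list 3 of 28 tested members were called higher and 4 lower, with a median log2 difference of 0.13 (0 to 3 higher and 2 to 5 lower without single libraries, 0 and 4 without scaling, 0 and 2 with KO DP replicates 1 and 2 alone, median -0.20 without scaling). On unscaled FPKM, Cd81 and Atp1b3 did not pass the test (adjusted p = 0.0818). The call of Slc12a7 ended on KO DP replicates 1 and 2 alone (adjusted p = 0.0851).

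Most called genes of glycan synthesis were higher in KO DP. In the list, 12 of 62 tested members were called higher and 5 lower, with a median log2 difference of 0.02 (7 to 14 higher and 2 to 9 lower without single libraries, 6 and 3 without scaling, 7 and 0 with KO DP replicates 1 and 2 alone). Fut7, which adds the fucose of selectin ligands, was at 31.6, 42.7, 60.1 and 61.7 in KO DP and 8.60, 11, 10.1 and 9.71 in WT SP. KO DP replicates 3 and 4 were the highest, and WT SP lay below KO DP (2.16 ± 0.21, adjusted p = 6.20e-04). Galnt9 (2.57), which starts O-linked glycans, and B4galt4 (1.80), a galactosyltransferase, also rose, and Mgat4a (-1.28), which branches N-linked glycans, fell. St6galnac6, a sialyltransferase, was at 4.94, 5.56, 7.79 and 7.29 in KO DP, and every WT SP library lists it at 0. Among semaphorins, ephrins, plexins and Notch genes, 2 of 21 tested members were called higher and 6 lower, with a median log2 difference of -0.24 (2 higher and 1 to 5 lower without single libraries, 1 and 2 without scaling, 2 and 2 with KO DP replicates 1 and 2 alone). Sema6d rose (1.86), and Nrarp, a target and regulator of Notch signalling, fell (-1.21). Sema6d missed the threshold on unscaled values (adjusted p = 0.0558). Leaving out both KO DP libraries of the higher titles ended the call of Mgat4a (adjusted p = 0.0593).

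Several nuclear receptors and helix-loop-helix factors were higher in KO DP. Rora, a nuclear receptor, was at 68.6, 68.6, 78.4 and 77.1 in KO DP and 10.8, 19.2, 4.2 and 5.37 in WT SP. The groups lay apart, with WT SP replicates 3 and 4 lowest (2.97 ± 0.38, adjusted p = 0.00228). Among nuclear receptors, 4 of 18 tested members were called higher and 1 lower, with a median log2 difference of 0.09 (3 to 6 higher and 0 to 1 lower without single libraries, 2 lower with the replicate block, 2 and 0 without scaling, 3 and 0 with KO DP replicates 1 and 2 alone). Ahr, the aryl hydrocarbon receptor, was at 5.23, 7.01, 6.08 and 5.6 in KO DP and 0.584, 0.329, 0.297 and 0.253 in WT SP. KO DP was above 5 and WT SP below 1 throughout (2.35 ± 0.16, adjusted p = 7.71e-05). Arntl (1.44), a clock factor, Hif1a (1.17), the oxygen-sensing factor, and Id2 (1.36), an inhibitor of E proteins, also rose, and Myc, which drives growth, fell. Myc was at 23.0, 16.8, 11.1 and 15.5 in KO DP and 89.4, 48.3, 97.5 and 92.1 in WT SP. All WT SP libraries exceeded KO DP, with WT SP replicate 2 the lowest of its group (-2.23 ± 0.27, adjusted p = 0.00180). Of the basic helix-loop-helix and Id factors, 8 of 27 tested members were called higher and 2 lower, with a median log2 difference of 0.21 (4 to 9 higher and 1 to 2 lower without single libraries, 3 and 1 without scaling, 2 and 1 with KO DP replicates 1 and 2 alone, median -0.05 without scaling). Without scaling, Arntl, Hif1a and Id2 lost the call (adjusted p = 0.0845 to 0.266). With KO DP limited to replicates 1 and 2, Hif1a and Id2 did not pass (adjusted p = 0.0589 to 0.0683).

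Zbtb7b encodes ThPOK, the factor that commits thymocytes to the CD4 lineage, and was at 3.55, 4.56, 2.24 and 2.33 in KO DP and 0.272, 0.727, 0.182 and 0.192 in WT SP. It was low in both groups and did not overlap between them (1.62 ± 0.23, adjusted p = 0.00374). Egr2 (2.37), induced by T cell receptor signals, rose, Klf12 (1.02) rose from near 0 in WT SP to about 1, and Klf3 (-0.97), a repressor, fell. In the list of Ikaros, Kruppel-like and related zinc fingers, 8 of 47 tested members were called higher and 5 lower, with a median log2 difference of 0.01 (5 to 12 higher and 2 to 6 lower without single libraries, 9 lower with the replicate block, 3 and 0 without scaling, 5 and 1 with KO DP replicates 1 and 2 alone). Maf, which acts in several helper lineages, was at 3.43, 4.76, 2.31 and 2.74 in KO DP and 0.182, 0.222, 0.0264 and 0.0195 in WT SP. All KO DP libraries were above 2 and all WT SP libraries below 1 (1.93 ± 0.21, adjusted p = 8.94e-04). Batf rose (1.19), and Bach2, which restrains effector genes, fell (-1.38). Among AP-1 and other leucine zipper factors, 4 of 34 tested members were called higher and 5 lower, with a median log2 difference of 0.08 (3 to 8 higher and 3 to 8 lower without single libraries, 1 and 3 without scaling, 3 and 2 with KO DP replicates 1 and 2 alone). Irf5, an interferon regulatory factor, rose (1.87), and in the list of IRF, STAT and NF-kappaB genes 3 of 41 tested members were called higher and 3 lower, with a median log2 difference of 0.07 (1 to 4 higher and 0 to 4 lower without single libraries, 0 and 0 without scaling, 0 and 0 with KO DP replicates 1 and 2 alone). The calls of Klf3, Batf and Irf5 ended without scaling (adjusted p = 0.0662 to 0.209). Irf5 missed the threshold when KO DP replicates 3 and 4 were left out (adjusted p = 0.0535).

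Satb1 and Foxp1 fell, and Foxp3 was listed above 0 in every KO DP library. Satb1, a chromatin organiser, was at 16.4, 14.4, 20.7 and 19.9 in KO DP and 98.6, 46.5, 98.3 and 93.7 in WT SP. WT SP replicate 2 was the lowest of its group and the groups did not overlap (-2.13 ± 0.25, adjusted p = 0.00149). Foxp1, which supports quiescence, fell as well (-1.29). In the list of HMG, homeobox, forkhead and T-box factors, 2 of 34 tested members were called higher and 8 lower, with a median log2 difference of -0.22 (1 to 6 higher and 2 to 9 lower without single libraries, 4 higher with the replicate block, 1 and 3 without scaling, 1 and 2 with KO DP replicates 1 and 2 alone). Foxp3, the factor of regulatory T cells, was at 23.1, 16.2, 4.48 and 9.97 in KO DP, and no WT SP library lists it above 0. Among chromatin modifiers, 5 of 84 tested members were called higher and 8 lower, with a median log2 difference of -0.20 (0 to 5 higher and 2 to 12 lower without single libraries, 0 and 2 without scaling, 0 and 2 with KO DP replicates 1 and 2 alone). Hdac7, a class IIa histone deacetylase, and Chd7, a chromatin remodeller, fell (-2.0 and -0.86). Of the Ets, Runx, Myb and E2F factors, 5 of 44 tested members were called higher and 1 lower, with a median log2 difference of 0.10 (0 to 14 higher and 0 to 2 lower without single libraries, 8 higher and 2 lower with the replicate block, 0 and 0 without scaling, 0 and 0 with KO DP replicates 1 and 2 alone, median -0.08 without scaling). On unscaled FPKM, Chd7 did not pass the test (adjusted p = 0.0787). The call of Chd7 ended on KO DP replicates 1 and 2 alone (adjusted p = 0.123).

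**Figure D4:**
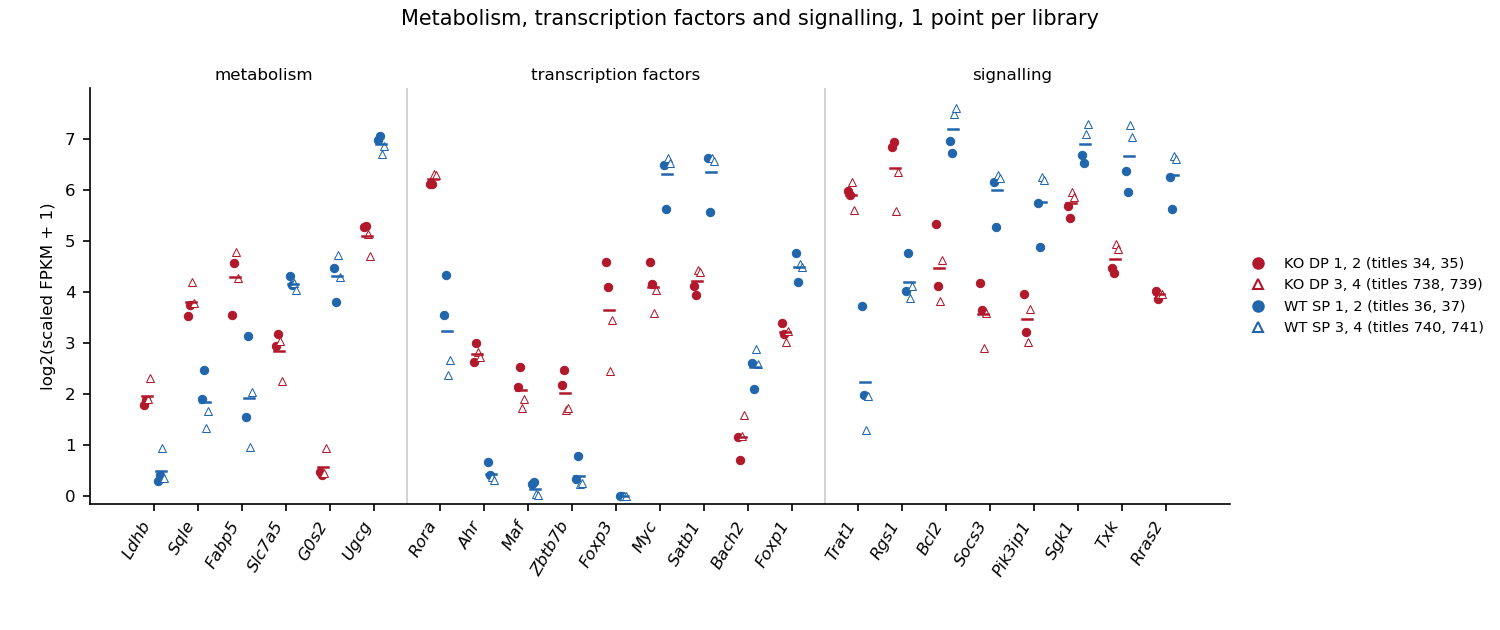
Levels of metabolic genes, transcription factors and signalling genes, as log2(scaled FPKM + 1), with 1 point per library (KO DP red, WT SP blue, circles for titles 34 to 37, open triangles for 738 to 741) and lines at the group means. No gene drawn overlaps between the groups; Foxp3 is at or near 0 in all WT SP libraries.

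Signalling downstream of the T cell receptor changed in adaptors and kinases. Trat1, an adaptor that binds the receptor complex, was at 62.3, 59.2, 70.1 and 47.8 in KO DP and 12.2, 2.97, 1.45 and 2.92 in WT SP. WT SP replicate 1 was above its group and the groups did not overlap (3.67 ± 0.45, adjusted p = 0.00186). Txk, a Tec family kinase, was at 21.3, 19.7, 29.8 and 27.8 in KO DP and 82.4, 61.2, 155 and 132 in WT SP. All WT SP libraries were above KO DP (-2.01 ± 0.29, adjusted p = 0.00382). Cish, a feedback inhibitor of cytokine and receptor signals, rose (1.65), and Malt1, which links the receptor to NF-kappaB, fell (-0.96). In the list, 7 of 58 tested members were called higher and 9 lower, with a median log2 difference of -0.22 (2 to 8 higher and 2 to 9 lower without single libraries, 1 and 3 without scaling, 3 and 2 with KO DP replicates 1 and 2 alone). Rgs1, which dampens chemokine receptor signals, was at 114, 122, 47.1 and 81.2 in KO DP and 15.3, 26.2, 13.8 and 16.3 in WT SP. The groups lay apart (2.24 ± 0.31, adjusted p = 0.00354). Tiam1 (1.34), an activator of Rac, rose, and Rgs11 (-2.06), a relative of Rgs1, fell, in a list of which 4 of 84 tested members were called higher and 9 lower, with a median log2 difference of -0.06 (3 to 10 higher and 2 to 12 lower without single libraries, 14 lower with the replicate block, 2 and 3 without scaling, 4 and 2 with KO DP replicates 1 and 2 alone). Cish and Rgs1 missed the threshold on unscaled values (adjusted p = 0.0510 to 0.0788).

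Called members of the PI3K list were all lower in KO DP. In it, 0 of 47 tested members were called higher and 10 lower, with a median log2 difference of -0.30 (0 to 1 higher and 7 to 10 lower without single libraries, 2 higher with the replicate block, 0 and 5 with KO DP replicates 1 and 2 alone), and 2 were higher at an unadjusted p under 0.05. Pik3ip1, an inhibitor of PI3K, was at 14.7, 8.36, 7.15 and 11.7 in KO DP and 52.7, 28.5, 75.3 and 72.3 in WT SP. KO DP lay below WT SP, whose replicate 2 was lowest (-2.30 ± 0.33, adjusted p = 0.00373). Sgk1, a kinase activated downstream of PI3K, was at 50.6, 42.8, 61.0 and 57.5 in KO DP and 103, 92.0, 137 and 155 in WT SP. Every WT SP library was above every KO DP library (-1.16 ± 0.19, adjusted p = 0.00681). Its relative Sgk3 (-1.46), the PI3K gamma subunit Pik3r5 (-1.41) and Sesn1 (-1.71), an inhibitor of mTORC1, also fell, so the falls held both activators and inhibitors of the pathway. With KO DP limited to replicates 1 and 2, Sesn1 did not pass (adjusted p = 0.0773).

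Bcl2, Socs3 and the kinases Pim2 and Jak1 were lower. Bcl2, which blocks mitochondrial cell death, was at 39.6, 16.5, 13.2 and 23.7 in KO DP and 123, 105, 178 and 195 in WT SP. Every WT SP library was above 100 and no KO DP library reached 40 (-2.71 ± 0.34, adjusted p = 0.00194). Among Bcl2 family and death genes, 11 of 40 tested members were called higher and 1 lower, with a median log2 difference of 0.18 (4 to 12 higher and 1 to 2 lower without single libraries, 0 and 1 without scaling, 4 and 1 with KO DP replicates 1 and 2 alone, median -0.20 without scaling), and Bcl2 was the 1 that fell. Rises there included Casp1 (1.39) and Casp4 (1.45), inflammatory caspases, and Gadd45b (1.70), a stress response gene. Socs3, a feedback inhibitor of interleukin 6 family signals, was at 17.1, 11.6, 6.45 and 11.1 in KO DP and 70.4, 37.9, 77.7 and 74.5 in WT SP. The groups did not overlap (-2.41 ± 0.31, adjusted p = 0.00225). Pim2, a survival kinase, and Jak1, a kinase of cytokine receptors, fell (-1.38 and -1.02), and in that list 1 of 29 tested members was called higher and 5 lower, with a median log2 difference of -0.04 (1 to 2 higher and 4 to 6 lower without single libraries, 2 higher with the replicate block, 0 and 4 without scaling, 1 and 2 with KO DP replicates 1 and 2 alone). Among MAP kinase genes, 4 of 53 tested members were called higher and 6 lower, with a median log2 difference of 0.01 (2 to 8 higher and 1 to 8 lower without single libraries, 0 and 2 without scaling, 1 and 1 with KO DP replicates 1 and 2 alone). Rras2, a Ras family GTPase, was at 15.3, 13.7, 14.6 and 14.7 in KO DP and 75.2, 48.7, 101 and 96.5 in WT SP. It was several times lower in every KO DP library (-2.33 ± 0.22, adjusted p = 4.49e-04), whereas Map2k3 (1.07), which activates p38, and Dusp1 (1.92), which switches p38 and JNK off, rose. The calls of Map2k3, Dusp1, Jak1, Casp4, Casp1 and Gadd45b ended without scaling (adjusted p = 0.0793 to 0.226). Map2k3, Pim2 and Jak1 missed the threshold when KO DP replicates 3 and 4 were left out (adjusted p = 0.0539 to 0.0714).

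In the TGF-beta and BMP list, 1 of 19 tested members was called higher and 4 lower, with a median log2 difference of -0.44 (1 higher and 0 to 5 lower without single libraries, 1 and 0 without scaling, 1 and 0 with KO DP replicates 1 and 2 alone), and Bmp7, a secreted ligand, was the 1 rise (2.14). Of Wnt genes, 2 of 22 tested members were called higher and 5 lower, with a median log2 difference of -0.46 (2 higher and 1 to 6 lower without single libraries, 2 and 2 without scaling, 2 and 1 with KO DP replicates 1 and 2 alone). Wnt10a, a ligand, rose (1.90), and of the related ligases that remove Wnt receptors Rnf43 rose (1.91) and Znrf3 fell (-1.28). Among tyrosine phosphatases, 5 of 31 tested members were called higher and 3 lower, with a median log2 difference of 0.28 (3 to 8 higher and 1 to 3 lower without single libraries, 3 and 2 without scaling, 5 and 1 with KO DP replicates 1 and 2 alone, median -0.10 without scaling). Ptprk (1.37) and Ptpn7 (1.01) rose and Ptpn12 (-1.57) fell. For ubiquitin ligases and deubiquitinases, 3 of 45 tested members were called higher and 9 lower, with a median log2 difference of -0.07 (1 to 5 higher and 2 to 11 lower without single libraries, 0 and 4 without scaling, 2 and 2 with KO DP replicates 1 and 2 alone), with Usp28 (-1.78), a deubiquitinase, and Wwp1 (-0.83), a ligase, among the falls. On unscaled FPKM, Ptpn7 did not pass the test (adjusted p = 0.270). The call of Wwp1 ended on KO DP replicates 1 and 2 alone (adjusted p = 0.0628).

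Most mitosis genes were called higher in KO DP, though few of them in some fits that left out libraries. Of the mitosis genes, 53 of 70 tested members were called higher and 0 lower, with a median log2 difference of 1.84 (3 to 67 higher and 0 lower without single libraries, 24 higher with the replicate block). At an unadjusted p under 0.05, 0 mitosis genes and 1 gene of the replication list below were lower. Without KO DP replicates 2, 3 and 4 in turn, 11, 7 and 9 were called higher, and without WT SP replicates 1, 3 and 4, 12, 3 and 5. On unscaled FPKM 8 were called higher, with no filter on low values 14, and with KO DP limited to replicates 1 and 2, 1. The list's mean level on the log2(scaled FPKM + 1) scale was 3.56, 4.31, 4.99 and 4.57 in KO DP and 2.91, 3.63, 1.99 and 1.99 in WT SP. KO DP replicate 1 thus lay below WT SP replicate 2, and the median difference was 0.68 in titles 34 to 37 and 2.96 in titles 738 to 741, with no test of the list between the ranges. Cenpk, a kinetochore protein, Ect2, which acts in cytokinesis, and Ncaph, a condensin subunit, rose by 1.84, 1.81 and 2.23 on the log2 scale. Ncaph was at 20.6, 31.3, 52.0 and 34.5 in KO DP and 8.30, 14.8, 3.58 and 3.03 in WT SP. No KO DP library of it fell below WT SP, whose replicates 3 and 4 were lowest (2.23 ± 0.45, adjusted p = 0.0153). Mki67, the proliferation antigen Ki-67, did not overlap between the groups and was not called (1.96 ± 0.68, adjusted p = 0.0903); it passed with the title range as a covariate (adjusted p = 0.0284) and without WT SP replicate 2 (adjusted p = 0.0264). Ect2 missed the threshold on unscaled values (adjusted p = 0.0533). Leaving out both KO DP libraries of the higher titles ended the calls of Ect2 and Ncaph (adjusted p = 0.113 to 0.122).

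Kif20a and Fam64a, named after their values were seen and both known from dividing cells, were the 2 called genes past limma's interaction term. Kif20a, a kinesin of cytokinesis, was at 15.9, 24.5, 45.8 and 30.2 in KO DP and 8.44, 12.2, 0 and 0 in WT SP. Since an exact 0 can be a failed estimate and both WT SP libraries of titles 738 to 741 are listed at 0, no difference is given for it. Its call and its pass of the interaction term rest partly on these zeros and are not interpreted. Fam64a was at 10.7, 14, 26.6 and 22.6 in KO DP and 4.44, 6.77, 1.34 and 0.965 in WT SP, with differences of 1.03 in titles 34 to 37 and 3.57 in titles 738 to 741 (interaction adjusted p = 0.0391). Erythroid and myeloid marker sums also differed between the ranges in both groups, as given above, and their part was not tested. With KO DP limited to replicates 1 and 2, Fam64a did not pass (adjusted p = 0.135). Fam64a also lost the call without KO DP replicate 3 or WT SP replicate 3 (adjusted p = 0.0502 to 0.0519).

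Calls among DNA replication genes were all rises. In that list, 20 of 56 tested members were called higher and 0 lower, with a median log2 difference of 0.91 (1 to 31 higher and 0 lower without single libraries), and the median, not tested between the ranges, was 0.35 in titles 34 to 37 and 1.39 in titles 738 to 741. With single libraries left out, 31, 3, 3 and 2 were called higher without KO DP replicates 1 to 4, and 3, 28, 1 and 2 without WT SP replicates 1 to 4. On unscaled FPKM 1 was called, with no filter 3, and with KO DP replicates 1 and 2 alone 0. Cdc6, which loads the replicative helicase, was at 5.57, 8.44, 18.4 and 12.8 in KO DP and 2.32, 3.63, 1.88 and 1.79 in WT SP. KO DP replicates 3 and 4 were the highest, and there was no overlap (1.77 ± 0.33, adjusted p = 0.0118). Gins3, a subunit of that helicase's GINS complex, and Kif22, a mitotic kinesin, rose by 0.64 and 2.12 on the log2 scale. The call of Gins3 ended without scaling (adjusted p = 0.513). Cdc6, Kif22 and Gins3 missed the threshold when KO DP replicates 3 and 4 were left out (adjusted p = 0.0588 to 0.185). Kif22 also lost the call without WT SP replicates 3 or 4 (adjusted p = 0.0507 to 0.0557). Gins3 also lost the call without KO DP replicates 3 or 4 or WT SP replicates 1, 3 or 4 (adjusted p = 0.0687 to 0.0916). With no filter on low values, Gins3 did not pass (adjusted p = 0.0599).

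Promoters of the called members were searched for letters known from cell cycle genes, since these members moved together. The windows were the 250 bases before each gene start in RefSeq (GRCm38.p6), read on both strands. A promoter was matched for 45 of the 53 mitosis genes called, 17 of the 20 replication genes and 20 of the 23 ribosome biogenesis genes. The CHR element, searched as TTTGAA or TTCGAA, was in 17 of the 45 mitosis promoters (37.8%) and in 19.6% of the promoters of all 27025 genes with one (14.9% of the 7820 of genes tested here). Of all tested mitosis genes, called or not, 24 of 59 promoters (40.7%) held it, so the called ones did not hold it more often. The letters CCAAT, which the factor NF-Y binds, were in 33 of the 45 (73.3%) and 14 of the 17 replication promoters (82.4%), against 37.5% of all and 41.4% of genes tested. Among all tested members of the lists, called or not, they were in 67.8% of mitosis and 65.1% of replication promoters. The E2F element, searched as TTTCCCGC, TTTCGCGC, TTTGCCGC or TTTGGCGC, was in 7 of the 17 replication promoters (41.2%), in 2.16% of all and in 4.13% of genes tested. Of all tested replication genes, called or not, 11 of 43 promoters (25.6%) held it. None of these element letters contains another. A match is a description of letters and not a bound site. For each list, 2 promoters that hold the element are shown as 100 bases each, 5′ to 3′ along the transcribed strand, with all CHR and E2F letters in capitals as they stand on that strand. They are Ect2 (chr3:27153940-27154039, minus strand) and Kif22 (chr7:127042421-127042520, minus strand) with CHR, and Cdc6 (chr11:98907967-98908066, plus strand) and Gins3 (chr8:95633459-95633558, plus strand) with E2F.
Ect2: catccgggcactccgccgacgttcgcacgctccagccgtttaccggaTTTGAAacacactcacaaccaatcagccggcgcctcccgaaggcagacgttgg
Kif22: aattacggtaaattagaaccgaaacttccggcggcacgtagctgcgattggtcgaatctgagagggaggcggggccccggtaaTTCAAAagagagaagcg
Cdc6: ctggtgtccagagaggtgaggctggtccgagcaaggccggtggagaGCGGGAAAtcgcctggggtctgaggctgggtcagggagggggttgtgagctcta
Gins3: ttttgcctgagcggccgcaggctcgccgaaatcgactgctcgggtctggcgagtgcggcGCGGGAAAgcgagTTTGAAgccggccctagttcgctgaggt
The element each was chosen for begins 114 bases before the gene start in Ect2, 17 in Kif22, 138 in Cdc6 and 41 in Gins3. Gins3 also holds the CHR letters, 28 bases before its start.

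Every ribosome gene called was lower in KO DP, and most members were not called. Of the ribosome biogenesis and RNA polymerase I genes, 0 of 52 tested members were called higher and 23 lower, with a median log2 difference of -0.59 (0 higher and 9 to 38 lower without single libraries). At an unadjusted p under 0.05, 0 of these and 0 of the ribosomal protein genes below were higher. Their mean level was 3.94, 4.02, 3.99 and 3.95 in KO DP and 4.81, 4.31, 4.79 and 4.66 in WT SP on the log2(scaled FPKM + 1) scale. The groups did not overlap, and WT SP replicate 2 was the lowest of its group. Nat10, an RNA acetyltransferase of ribosome assembly, was at 13.9, 13.0, 12.8 and 14.8 in KO DP and 37.2, 30.5, 31.8 and 28.2 in WT SP. Each KO DP library was below 15 and all WT SP libraries above 28 (-1.17 ± 0.12, adjusted p = 7.00e-04). Mybbp1a (-1.12), Rrp12 (-1.17), Ddx21 (-0.85) and Polr1b (-1.17), a subunit of RNA polymerase I, fell as well. The E-box CACGTG, which MYC and other factors bind, was in 2 of the 20 matched promoters (10%), against 6.86% of all and 10.1% of genes tested. Of all tested members of the list with a promoter, called or not, 8.51% held it. The number called lower was 7 on unscaled FPKM, 12 with equal sums, 13 with no filter and 2 with KO DP limited to replicates 1 and 2. On unscaled FPKM, Ddx21 did not pass the test (adjusted p = 0.0757). The calls of Mybbp1a, Ddx21, Rrp12 and Polr1b ended on KO DP replicates 1 and 2 alone (adjusted p = 0.0628 to 0.102).

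Among cytosolic ribosomal proteins, 0 of 79 tested members were called higher and 19 lower, with a median log2 difference of -0.75 (0 higher and 3 to 12 lower without single libraries). Their values are uncertain because these genes have many near-identical pseudogene copies that the counting could split. Rpl12 fell by 1.15 on the log2 scale. The list's mean level was 6.44, 6.87, 6.33 and 6.31 in KO DP and 7.98, 7.46, 6.62 and 6.78 in WT SP, so KO DP replicate 2 lay above WT SP replicates 3 and 4. On unscaled FPKM 1 was called lower, with no filter 5, with the title range as a covariate 52 and with KO DP replicates 1 and 2 alone 0. Leaving out both KO DP libraries of the higher titles ended the call of Rpl12 (adjusted p = 0.10).

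**Figure D5:**
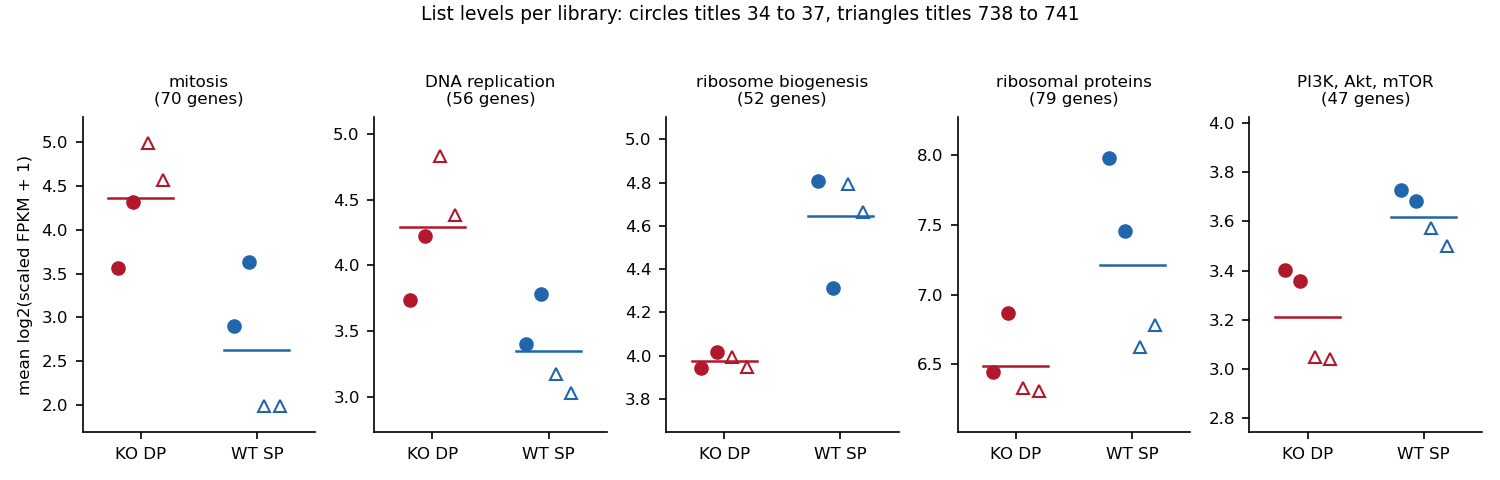
Mean log2(scaled FPKM + 1) of the tested members of 5 lists in each library (KO DP red, WT SP blue, circles for titles 34 to 37, triangles for 738 to 741), with lines at the group means and a separate y axis per list that does not start at 0. Mitosis runs from 1.99 to 3.63 in WT SP and from 3.56 to 4.99 in KO DP, and ribosome biogenesis does not overlap between the groups.

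The last lists hold protein folding and lysosome genes. Of the folding and endoplasmic reticulum stress genes, 1 of 43 tested members was called higher and 2 lower, with a median log2 difference of -0.06 (0 to 4 higher and 0 to 2 lower without single libraries, 2 higher and 1 lower with the replicate block, 0 and 0 without scaling, 1 and 0 with KO DP replicates 1 and 2 alone), and of the lysosome and autophagy genes, 2 of 49 tested members were called higher and 5 lower, with a median log2 difference of -0.10 (0 to 3 higher and 2 to 7 lower without single libraries, 0 and 1 without scaling, 0 and 1 with KO DP replicates 1 and 2 alone).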

How the data were processed

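RNA libraries were amplified with SMART-Seq v4 and tagmented with Nextera per the labels' protocols, which does not mark strand, so overlapping antisense genes share their reads. The values deposited by the authors are FPKM. The submitters' processing notes name TopHat, Cufflinks and mm9, without versions or an annotation. FPKM holds no read counts, so depth is unknown and no counting interval is given. Lines that repeat a symbol were summed (466 of 23700), and libraries were divided by size factors from the median ratio to the geometric mean over 11877 genes (1.22, 1.22, 0.786 and 0.496 in KO DP and 1.12, 1.17, 1.17 and 1.14 in WT SP). Genes whose deposited FPKM had a mean of at least 0.5 before this division were tested, so a gene could pass through 1 group alone. The test was limma 3.58.1 in R 4.3.3 on log2(scaled FPKM + 1) with a mean-variance trend, group as the only term (6 residual degrees of freedom), two-sided, with p-values adjusted by Benjamini-Hochberg at 0.05; it was tested on simulated data. Tables, promoter searches and plots used Python 3.11.15 with numpy 2.4.6, pandas 2.3.3 and matplotlib 3.10.9.

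The members, the 60 gene lists and the alternatives were chosen with earlier results of these data known. Lists are described by counts and medians, with no set test. Tbxa2r, a G protein-coupled receptor, was taken out of the T-box list as an error after values were seen. Named genes were Ehmt2, the coreceptors and marker genes, the 15 largest rises and 15 largest falls without overlap (passing over Y-linked genes, Xist, gene models without a symbol, and genes at 0 in a library beside a value over 5 in the same group), up to 4 called members per list and direction by smallest p, and textbook enzymes or factors. Not every eligible gene is named, a few are not reported here, and the choice among them was made after values were seen, mostly of genes called in every fit that left out 1 library. Kif22 and Gins3 were chosen by their promoter letters and smallest p, with promoters of a single chromosome left out of the choice. Alternatives were other scalings, pseudocounts and filters, all 10 libraries, the replicate block, the title range as covariate, KO DP limited to titles 34 and 35, and each library left out. The descriptions number the libraries of both groups from 1 to 4. Same-numbered libraries deviated together, with correlations of 0.150, 0.304, 0.101 and 0.134 across genes, so the numbers were taken to pair the libraries, though same-numbered libraries also share a title range and KO DP replicates 3 and 4 correlated best with WT SP replicates 4 and 3 (0.198 and 0.265).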

Additional observations from a re-analysis of the deposited data

Results flagged for a closer look

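Groups of 4 libraries were examined for the named genes and for the mean levels of a few lists. In 31 of these 354 groups, all of named genes, 1 library lay apart from the other 3 by more than Dixon's criterion allows. For normally distributed values chance gives this in about 1 of 20 groups. Scaled FPKM, many of them near 0, need not follow that rate. Of these, 16 were WT SP replicate 2. Its myeloid marker sum was the largest at 172, with Itgam at 51.0, and KO DP replicate 1 was next at 154. Some other myeloid markers, such as C1qb, were highest in KO DP replicate 1, and others, such as C1qa, in WT SP replicate 2. The part of these cells was not tested. Values are scaled FPKM of that library against the range of the other 3. WT SP replicate 2 stood above the other 3 libraries of its group for Il1r2 (0.660 against 0 to 0.0723), Tnfrsf4 (6.41 against 1.85 to 1.99), Tff1 (1.16 against 0 to 0.110), Crmp1 (26.2 against 2.34 to 5.62), Eno3 (37.7 against 9.17 to 13.5), Kit (0.511 against 0.110 to 0.171), Nrp1 (4.59 against 0.243 to 0.504), Hif1a (43.4 against 22.4 to 25.2) and Zbtb7b (0.727 against 0.182 to 0.272). WT SP replicate 2 stood below the rest of its group for Elovl7 (2.85 against 4.42 to 4.53), Myc (48.3 against 89.4 to 97.5), Gpr15 (0.109 against 1.70 to 1.85), Satb1 (46.5 against 93.7 to 98.6), Sesn1 (11.4 against 23.1 to 24.9), Pim2 (78.3 against 135 to 138) and Usp28 (7.79 against 18.0 to 19.1). WT SP replicate 1 stood above the rest of its group for Folr4 (1.45 against 0.301 to 0.429), Ccl1 (1.64 against 0), Trat1 (12.2 against 1.45 to 2.97) and Wnt10a (0.727 against 0.0347 to 0.0517). KO DP replicate 2 stood above the rest of its group for Ccl1 (31.3 against 12 to 12.7), Cxcr5 (37.2 against 22.2 to 24.0) and Ramp1 (16.4 against 8.61 to 9.68). KO DP replicate 4 stood above the rest of its group for G0s2 (0.920 against 0.342 to 0.395). WT SP replicate 3 stood above the rest of its group for Ldhb (0.919 against 0.228 to 0.328). WT SP replicate 3 stood below the rest of its group for Itgb1 (103 against 127 to 129). KO DP replicate 3 stood above the rest of its group for Me2 (62.6 against 41.0 to 41.9) and Fdps (30.5 against 20.8 to 21.3). KO DP replicate 3 stood below the rest of its group for Cd163l1 (24.4 against 51.3 to 53.3). KO DP replicate 1 stood above the rest of its group for Klf12 (1.44 against 0.948 to 1.03) and Pim2 (60.4 against 39.5 to 41.4). The group difference changed with the title range for Fam64a by limma's interaction term, and was larger in titles 738 to 741 by 2.55 (adjusted p = 0.0391) on the log2(scaled FPKM + 1) scale.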

How the results depend on the processing

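Without scaling 591 genes were called (241 higher, 350 lower), with no filter on low values 1085 (451 lower), with the title range as a covariate 2819 (1581 lower) and with KO DP limited to titles 34 and 35, 545 (353 higher, 192 lower). Leaving out single libraries gave 679 to 2376 calls, 381 to 1227 higher and 298 to 1149 lower. Differences that changed with the title range numbered 65 without scaling, 304 with no filter, 22 with a mean of at least 2, and 24 to 313 without single libraries. Mitosis genes higher (53) numbered 8 without scaling, 14 with no filter, 1 with KO DP limited to titles 34 and 35, and 3 to 67 without single libraries. DNA replication genes higher (20) numbered 1, 3 and 0 under the same 3 settings and 1 to 31 without single libraries. Ribosomal protein genes lower (19) numbered 1, 5 and 0, 52 with the title range as a covariate, and 3 to 12 without single libraries. Ribosome biogenesis genes lower (23) numbered 7, 13 and 2, 12 with equal sums, 36 with the covariate, and 9 to 38 without single libraries. The cause of these shifts was not tested, beyond the fewer samples of the fits that leave libraries out. The direction turned for 3 genes that were not called: Hk2 (-0.044 with KO DP limited to titles 34 and 35), Ldha (-0.28 without scaling, -0.21 with that limit, and -0.085 to 0.31 without single libraries, below 0 only without KO DP replicate 3) and Cpt1a (-0.32 without scaling, and -0.035 to 0.22 without single libraries, below 0 without KO DP replicates 1 or 2 or WT SP replicate 4).

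With the replicate number as a block, 1966 genes were called (900 higher, 1066 lower), of which 1451 were among the 1684, and 24 mitosis genes were higher. Of the named genes Kif20a, listed at 0 in 2 WT SP libraries, lost its call with the block (adjusted p = 0.0688) and no other did.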
